A study of Mus musculus with 12 samples.

Results

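The 26S proteasome is the ATP-driven protease that degrades ubiquitin-tagged proteins, and transcripts of its standard subunits were examined in a mouse B cell lymphoma line exposed to interferon-γ (IFN-γ). The genes were taken by name: Psma1 to Psma7, Psmb1 to Psmb4, Psmc1 to Psmc6 and Psmd1 to Psmd14. All 31 were found among the 53379 genes of the count table, and all 31 were among the 14299 genes tested.

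The particle has a 20S core of stacked rings, in which outer alpha rings guard the entrance and inner beta rings carry the proteolytic sites. A 19S cap sits on the alpha ring. Its base holds a ring of ATPases that unfold substrates, and its lid removes ubiquitin. IFN-γ is known to induce alternative catalytic subunits, which replace the constitutive ones in newly built cores and alter the peptides made for MHC class I, while the structural and cap subunits are shared by both kinds of core.

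The cells came from an Eµ-myc lymphoma of C57BL/6 origin, in which an immunoglobulin heavy chain enhancer drives Myc, and grew in RPMI medium with fetal calf serum. Polyadenylated RNA was sequenced from 12 samples, 3 in each of 4 groups: cells left unstimulated, and cells given recombinant mouse IFN-γ at 5 ng/mL for 1, 6 or 24 h. Exposures of 1 h and 6 h were stopped by adding the anti-IFN-γ antibody XMG1.2 (50 µg/mL). Harvest was at 24 h after stimulation. It is not stated if replicates were independent cultures, if antibody was given to the unstimulated or 24 h groups, or at what time the unstimulated group was harvested. The p-values reflect only the spread among these samples, which may be technical. As these are bulk samples, fewer cells with a transcript and less transcript per cell cannot be told apart.

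Library totals ran from 49440358 to 67096610 counts, and single members had between 618 counts (Psmd10) and 25533 counts (Psmd8) per library. All 8 B cell markers were detected, at a summed 2533 to 2559 CPM in 24 h cells and 2695 to 2776 CPM in unstimulated cells, where CPM is the count relative to the TMM-scaled library size. The 7 T and NK cell markers summed to at most 1.72 CPM per library, with Cd4, Cd8a and Ncr1 at 0 counts throughout, and the 7 myeloid markers to at most 2.94 CPM, with S100a8 at 0. The 5 stromal and endothelial markers summed to 90.1 to 93.8 CPM in 24 h cells and 60.0 to 61.2 CPM in unstimulated cells, nearly all of it from Pecam1, while Pdgfra was at 0. In the 24 h comparison 2 of the 8 B cell markers were called higher and 4 lower, and of 5 tested markers of precursor B cells 1 was higher and 3 lower; the part of these shifts in the results below was not tested. In a principal component analysis of the 500 most variable genes, the first component (68.7% of the variance) set the 24 h libraries apart and the second (5.04%) set replicate 3 of the 6 h group apart from the other 11 libraries. The main values of the 6 h comparison with unstimulated cells are also given without it.

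Subunits of 1 particle are needed in fixed proportions, yet their transcripts differed in level. In unstimulated cells, divided by the length of all annotated exons, Psma6, a structural alpha ring subunit, was highest at 180.2 ± 6.65 CPM per kb, followed by Psmb2, a non-catalytic beta subunit, at 154 ± 10.1 CPM per kb (SD, n = 3 each). The lowest were Psmd9 at 5.35 ± 0.427 and Psmd10 at 8.99 ± 0.627 CPM per kb, which with Psmd5 (12.3 ± 0.143 CPM per kb) are the chaperones that assemble the base and leave the finished particle. Outside these chaperones the lowest was the lid subunit Psmd13, at 22.05 ± 0.804 CPM per kb. Psmb2, Psma5 (153 ± 11.9 CPM per kb) and Psmd7 (147 ± 10.3 CPM per kb) lie within 1 SD of each other.

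**Figure D1:**
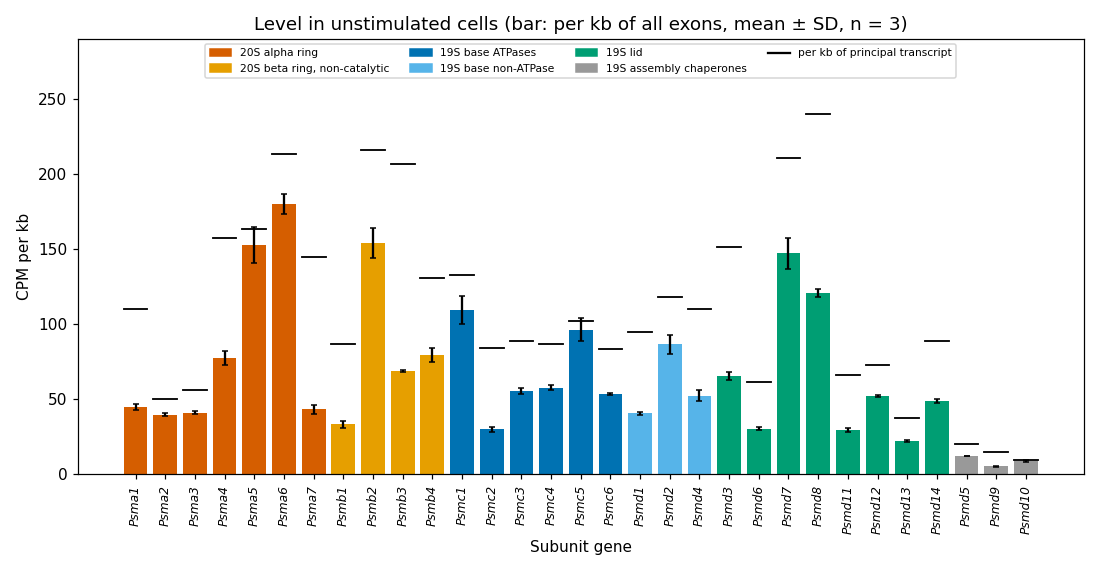
Level of each subunit transcript in unstimulated cells, in CPM per kb. Bars use all annotated exons (mean ± SD, n = 3), black lines use the principal transcript's length, and colours mark the place in the particle. The 3 assembly chaperones are lowest by both lengths, between 5.35 and 12.3 CPM per kb of exon.

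The median level was 44.8 CPM per kb over the 7 alpha ring genes, 74.2 over the 4 beta ring genes, 56.7 over the 6 ATPases, 52.2 over the 3 other base subunits and 50.4 over the 8 lid subunits. It was 8.99 CPM per kb over the 3 assembly chaperones. The order among the structural subunits depended on the length used. With the length of the principal transcript in place of all exons, Psmd8, a lid subunit, came first at 239.8 CPM per kb and Psmd10 last at 9.23 CPM per kb, and the chaperones again took the 3 lowest places.

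Psmd10, also known as gankyrin, had 13, 12.4 and 14.2 CPM in unstimulated cells, 13.3, 13.3 and 12.3 CPM after 1 h, 13.7, 12 and 15.4 CPM after 6 h and 13.8, 14.1 and 13.6 CPM after 24 h. Psmd9 had 42.2, 36.2 and 37.9 CPM in unstimulated cells, 37.8, 38.2 and 37.8 CPM after 1 h, 39.5, 37 and 36.9 CPM after 6 h and 36.8, 37.1 and 41.1 CPM after 24 h. In both genes the 4 groups overlapped. The highest member, Psma6, had 224, 213 and 229 CPM in unstimulated cells, 221, 219.8 and 201 CPM after 1 h, 213, 202 and 226 CPM after 6 h and 214, 217 and 210.0 CPM after 24 h, again with overlapping groups. Psmb2 had 195, 172 and 190.4 CPM in unstimulated cells, 170.4, 173 and 167 CPM after 1 h, 172, 168 and 176 CPM after 6 h and 179.9, 172 and 164 CPM after 24 h. Its unstimulated replicates 1 and 3 lay above all 9 other libraries but unstimulated replicate 2 did not, and Psmb2 was not called with all 12 libraries (adjusted p = 0.0961 in edgeR for 24 h against unstimulated cells). Without unstimulated replicate 2 it was called lower after 24 h.

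Within groups the members were tightly measured. The median coefficient of variation over the 31 genes was 3% in 24 h cells, 4.08% in 6 h cells, 2.75% in 1 h cells and 4.27% in unstimulated cells, with the widest single value at 12.2% for Psmd10 in 6 h cells. Differences between groups were also small. The ratio of the highest to the lowest of a gene's 4 group means had a median of 1.07 and ran from 1.02 for Psmd6, a lid subunit, to 1.22 for Psma1. Of the 31 members, 18 had their highest mean in unstimulated cells, 2 in 1 h, 0 in 6 h and 11 in 24 h cells. The lowest mean was in 6 h cells for 18 members. The same tally over all genes was not made, and the members share their libraries. It is therefore not read as a trait of the subunits.

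After 24 h of IFN-γ, 4 alpha ring transcripts, Psma1, Psma2, Psma4 and Psma5, were higher than in unstimulated cells by 8.88% to 19.5%. The ATPase Psmc2 and the lid subunits Psmd7 and Psmd13 were lower, by 8.86% to 10.9%, and the other 24 members were not called. A gene is called where its edgeR adjusted p over all 14299 genes is under 0.05. The 4 members called higher compare with 10.3% of all genes tested called higher, and the 3 called lower with 8.35% called lower, so the members' shares are near the background. All 4 of the higher ones belong to the 7 genes of the alpha ring; the other 24 members held 0 called higher.

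Regulatory sequence of these genes is shown because 4 subunits of 1 ring were called higher. Whether the calls are concentrated in that ring was not tested. Promoter windows, 250 bases before to 50 after the start, come from RefSeq on GRCm38.p6 and are written 5′ to 3′ along the gene's strand; capitals mark matches to the motifs searched. The 4 alpha ring genes called higher come first, then Psmc2 and Psmd13, called lower, and last Psme1, the interferon-induced activator subunit described further on.
Psma1, chr7:114276067-114276366, minus strand: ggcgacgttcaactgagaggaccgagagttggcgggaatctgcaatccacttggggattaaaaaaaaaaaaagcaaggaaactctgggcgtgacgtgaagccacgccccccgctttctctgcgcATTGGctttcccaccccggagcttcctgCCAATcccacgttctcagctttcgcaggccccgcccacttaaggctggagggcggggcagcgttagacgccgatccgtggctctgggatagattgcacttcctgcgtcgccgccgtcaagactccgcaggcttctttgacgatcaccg
Psma2, chr13:14612992-14613291, plus strand: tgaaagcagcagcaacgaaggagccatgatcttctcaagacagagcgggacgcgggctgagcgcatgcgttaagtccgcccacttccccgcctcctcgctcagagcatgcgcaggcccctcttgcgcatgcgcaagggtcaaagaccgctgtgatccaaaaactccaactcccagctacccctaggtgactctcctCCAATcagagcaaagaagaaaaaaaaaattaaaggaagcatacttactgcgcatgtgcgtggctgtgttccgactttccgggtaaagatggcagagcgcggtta
Psma4, chr9:54950609-54950908, plus strand: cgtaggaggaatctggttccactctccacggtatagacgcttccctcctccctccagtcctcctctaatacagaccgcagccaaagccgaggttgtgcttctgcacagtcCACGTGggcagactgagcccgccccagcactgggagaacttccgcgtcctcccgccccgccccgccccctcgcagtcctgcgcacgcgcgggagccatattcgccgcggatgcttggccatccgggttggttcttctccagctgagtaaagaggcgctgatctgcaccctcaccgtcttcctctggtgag
Psma5, chr3:108256676-108256975, plus strand: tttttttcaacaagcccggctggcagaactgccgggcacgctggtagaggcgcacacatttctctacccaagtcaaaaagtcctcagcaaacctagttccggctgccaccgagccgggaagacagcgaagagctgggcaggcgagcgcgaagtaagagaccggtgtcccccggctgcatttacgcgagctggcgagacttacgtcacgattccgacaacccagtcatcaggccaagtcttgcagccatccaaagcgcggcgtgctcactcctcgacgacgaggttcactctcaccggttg
Psmc2, chr5:21785025-21785324, plus strand: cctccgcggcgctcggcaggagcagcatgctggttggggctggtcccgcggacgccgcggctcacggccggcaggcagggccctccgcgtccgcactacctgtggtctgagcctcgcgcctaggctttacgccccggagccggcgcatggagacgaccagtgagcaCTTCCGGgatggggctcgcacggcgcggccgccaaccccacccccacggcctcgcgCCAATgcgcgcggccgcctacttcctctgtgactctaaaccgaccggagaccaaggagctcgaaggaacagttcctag
Psmd13, chr7:140882144-140882443, plus strand: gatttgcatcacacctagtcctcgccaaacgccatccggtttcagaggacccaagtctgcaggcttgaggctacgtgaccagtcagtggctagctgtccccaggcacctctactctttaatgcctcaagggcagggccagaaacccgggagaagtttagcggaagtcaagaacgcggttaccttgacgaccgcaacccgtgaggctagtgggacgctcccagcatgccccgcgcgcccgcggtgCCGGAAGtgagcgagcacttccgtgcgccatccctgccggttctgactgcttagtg
Psme1, chr14:55578244-55578543, plus strand: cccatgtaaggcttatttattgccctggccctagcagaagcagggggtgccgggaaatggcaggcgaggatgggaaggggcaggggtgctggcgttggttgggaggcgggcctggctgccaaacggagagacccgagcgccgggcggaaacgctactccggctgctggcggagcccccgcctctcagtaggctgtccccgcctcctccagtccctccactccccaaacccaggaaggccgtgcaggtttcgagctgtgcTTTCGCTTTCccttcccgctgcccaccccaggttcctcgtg

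A window was found for 26 of the 31 members, 28 windows in all, and Psmb1, Psmb2, Psmc3, Psmd3 and Psmd7 had none. Each motif was searched on both strands: the ETS site CCGGAAG, the CCAAT box CCAAT, the antioxidant response element TGACNNNGC bound by Nrf1 and Nrf2, the E-box CACGTG bound by MYC, the gamma-activated site TTCNNNGAA, and the core of the interferon-stimulated response element, which holds the GAAA half-sites of interferon response factors. In the sequences shown no 2 matches overlap. The ETS site stood in 39.3% of member windows, against 8.86% of all 32851 promoter windows of the same length. The CCAAT box was in 39.3% against 37.4%, the antioxidant element in 10.7% against 12.4%, and the E-box in 7.14% against 7.15%. The gamma-activated site was in 3.57% (Psmd2) against 8.3%, and the response element core in 10.7% (Psmb3, Psmd4 and Psmd9) against 3.44%. In the sequences above, Psma1 holds 2 CCAAT matches, Psma2 holds 1, Psma4 holds the E-box and Psma5 holds no match. Psmc2 holds the ETS site and a CCAAT match, Psmd13 the ETS site and Psme1 the response element core. Another Psmc2 window, chr5:21786497-21786796, is not shown and holds the ETS site without a CCAAT match. Windows of the interferon-induced genes Psmb8, Psmb9, Psmb10 and Psme2 were also searched and are not shown. Psmb8 holds a gamma-activated site but not the response element core, and Psmb9, Psmb10 and Psme2 hold neither. A match describes letters and not binding, and the windows of all genes were not matched to the members in GC content or level.

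Psma4, whose yeast counterpart carries the tail that closes the gate of the core (ENSMUSG00000032301.13, chr9:54950790-54958030, plus strand; GENCODE M21 on GRCm38), had 181, 173 and 195 CPM in unstimulated cells, 184, 184 and 175 CPM after 1 h, 175, 178 and 202 CPM after 6 h and 224, 214 and 219 CPM after 24 h. All 3 of the 24 h libraries stood above the other 9, and replicate 3 of the 6 h group was the highest of those 9. For this and the other called genes, the share of all genes with such separation was not counted. The log2 fold change of 24 h against unstimulated cells was 0.26 ± 0.05 (SE; edgeR adjusted p = 0.000416). Psma1, a structural alpha ring subunit (ENSMUSG00000030751.18, chr7:114264606-114276118, minus strand), had 129, 129 and 139 CPM in unstimulated cells, 126, 124 and 123 CPM after 1 h, 119, 118 and 139 CPM after 6 h and 157, 150.0 and 148 CPM after 24 h. Again each 24 h library was above all others; the difference from unstimulated cells was 0.20 ± 0.05 (SE; edgeR adjusted p = 0.00569) in log2 units. The calls for Psma4 and Psma1 held whichever of the 12 libraries was omitted.

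Psma5, another structural subunit of the ring (ENSMUSG00000068749.9, chr3:108256926-108279974, plus strand), had 207, 184 and 215 CPM in unstimulated cells, 200.1, 204 and 194 CPM after 1 h, 188, 186 and 201 CPM after 6 h and 232, 224 and 225 CPM after 24 h. The 24 h libraries did not overlap the rest, but unstimulated replicate 2 was low among its group. Psma5 was higher by 0.17 ± 0.05 (SE; edgeR adjusted p = 0.0134) on the log2 scale, and the call was lost without unstimulated replicate 2 (adjusted p = 0.0967) or 24 h replicate 1 (adjusted p = 0.0574). Psma2, which neighbours Psma4 in the ring (ENSMUSG00000015671.11, chr13:14613240-14674236, plus strand), had 149, 142 and 146 CPM in unstimulated cells, 140.0, 142 and 134 CPM after 1 h, 135, 133 and 142 CPM after 6 h and 159.9, 162 and 153 CPM after 24 h. Its 24 h libraries also lay above the other 9, and the log2 fold change against unstimulated cells was 0.12 ± 0.04 (SE; edgeR adjusted p = 0.0416). This call was lost without unstimulated replicate 2 or 3 or 24 h replicate 1 or 2 (adjusted p = 0.106, 0.084, 0.104 and 0.159). With each library's trend on GC content removed the log2 fold change of Psma2 was 0.05 (adjusted p = 0.52).

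**Figure D2:**
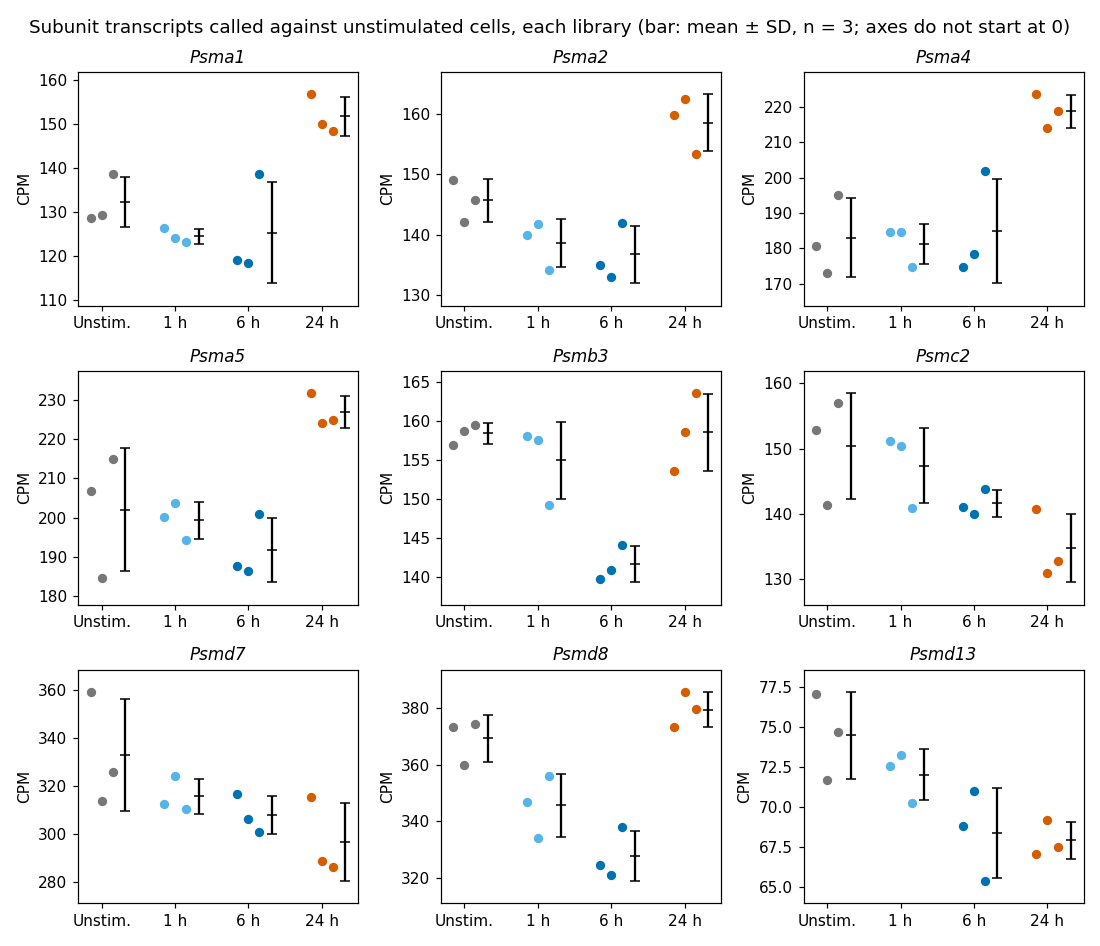
CPM of the 9 subunit transcripts called after 24 h or 6 h, for each of the 12 libraries, by group in order of exposure. Points are libraries, and the black bar is the mean ± SD of 3; the axes do not start at 0. The 24 h libraries of Psma1, Psma2, Psma4 and Psma5 lie above all the others, and the 6 h libraries of Psmb3 lie below all the others. The share of all genes separated in this way was not counted.

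The remaining alpha ring genes, Psma3, Psma6 and Psma7, were not called, at -0.06, -0.06 and -0.05 on the log2 scale (95% intervals -0.17 to 0.04, -0.15 to 0.04 and -0.15 to 0.05). Whether the called and the uncalled genes of the ring differ from each other was not tested. Among the non-catalytic beta subunits 0 of 4 were called, with log2 fold changes from -0.11 for Psmb2 to 0.07 for Psmb1.

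Psmc2, an ATPase of the base ring (ENSMUSG00000028932.7, chr5:21785283-21803787, plus strand), had 153, 141 and 157 CPM in unstimulated cells, 151, 150.4 and 141 CPM after 1 h, 141, 139.9 and 144 CPM after 6 h and 141, 131 and 133 CPM after 24 h. Its highest 24 h library lay just below the lowest unstimulated one. The log2 fold change was -0.16 ± 0.05 (SE; edgeR adjusted p = 0.0135), and the call was lost without unstimulated replicate 1 or 3 or 24 h replicate 2 (adjusted p = 0.0754, 0.104 and 0.0774). The other 5 ATPases, none of them called, had log2 fold changes between -0.07 (Psmc4) and -0.03 (Psmc5).

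The lid subunit Psmd7, partner of the deubiquitinase Psmd14 (ENSMUSG00000039067.5, chr8:107580381-107588464, minus strand), had 359, 314 and 326 CPM in unstimulated cells, 312, 324 and 310.3 CPM after 1 h, 316, 306 and 301 CPM after 6 h and 315, 289 and 286 CPM after 24 h. The 24 h and unstimulated groups overlapped, since 24 h replicate 1 exceeded unstimulated replicate 2, and unstimulated replicate 1 was the highest of all 12. The log2 fold change was -0.17 ± 0.05 (SE; edgeR adjusted p = 0.0132); the call was lost without unstimulated replicate 1 or 24 h replicate 2 or 3 (adjusted p = 0.179, 0.0736 and 0.0671). Psmd13, a scaffold subunit of the lid (ENSMUSG00000025487.15, chr7:140881968-140898643, plus strand), had 77.1, 71.7 and 74.7 CPM in unstimulated cells, 72.6, 73.3 and 70.2 CPM after 1 h, 68.8, 71 and 65.4 CPM after 6 h and 67, 69.2 and 67.5 CPM after 24 h. Its 24 h and unstimulated libraries did not overlap, and the log2 fold change was -0.13 ± 0.05 (SE; edgeR adjusted p = 0.0459). This call was close to the threshold: omitting a single library ended it in 10 of 12 cases, the 2 exceptions being unstimulated replicate 2 or 6 h replicate 3, with an adjusted p of up to 0.221 without unstimulated replicate 1. It was also lost with a filter of at least 1 count in any library, with the 6 libraries compared alone and with the GC trend removed (adjusted p = 0.0927, 0.059 and 0.0706). Psmd13 also shares 342 bp of exon with Sirt3 on the opposite strand, and the strand setting of the counting is not given in the sources used here.

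With unstimulated replicate 1 or 24 h replicate 2 left out, 0 members were called lower after 24 h, and 1 was without unstimulated replicate 3 or 24 h replicate 3. Without unstimulated replicate 2 there were 5, and 2 members were then called higher, as was also so without 24 h replicate 1. Unstimulated replicate 2 had the lowest summed level of all members in its group, 5120 CPM, against 5458 and 5517 CPM in unstimulated replicates 1 and 3. Summed over the 31 members, the level was 5320 ± 47.5 CPM in 24 h cells, 5092 ± 146 in 6 h cells, 5180 ± 101 in 1 h cells and 5365 ± 215 in unstimulated cells (SD, n = 3 each), so the group means differed by little more than the spread of the unstimulated libraries.

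Just outside the threshold stood Psmd2, a base scaffold that receives ubiquitin shuttles. It had 358, 321 and 371 CPM in unstimulated cells, 328, 342 and 326 CPM after 1 h, 328, 332 and 328 CPM after 6 h and 329, 314 and 329 CPM after 24 h. Unstimulated replicates 1 and 3 were above the other 10 libraries, and unstimulated replicate 2 lay among the 24 h values. The log2 fold change was -0.11 ± 0.05 (SE; edgeR adjusted p = 0.0857). Psmd2 was called lower without unstimulated replicate 2 and with the exon length trend removed. The other base subunits Psmd1 and the ubiquitin receptor Psmd4 had -0.04 and -0.08, and the chaperones Psmd5, Psmd9 and Psmd10 had -0.04, -0.02 and 0.07, none of them called. The remaining lid subunits, Psmd3, Psmd6, Psmd8, Psmd11, Psmd12 and the deubiquitinase Psmd14, ran from -0.06 (Psmd14) to 0.04 (Psmd3), not called. Psmd14 was called lower with the GC trend removed. Over the 31 members the median log2 fold change was -0.04 and 64.5% were below 0, beside a median of -0.0028 and 50.6% over all genes. The members' median was -0.01 without unstimulated replicate 1 and -0.02 without unstimulated replicate 3 or 24 h replicate 2 or 3.

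**Figure D3:**
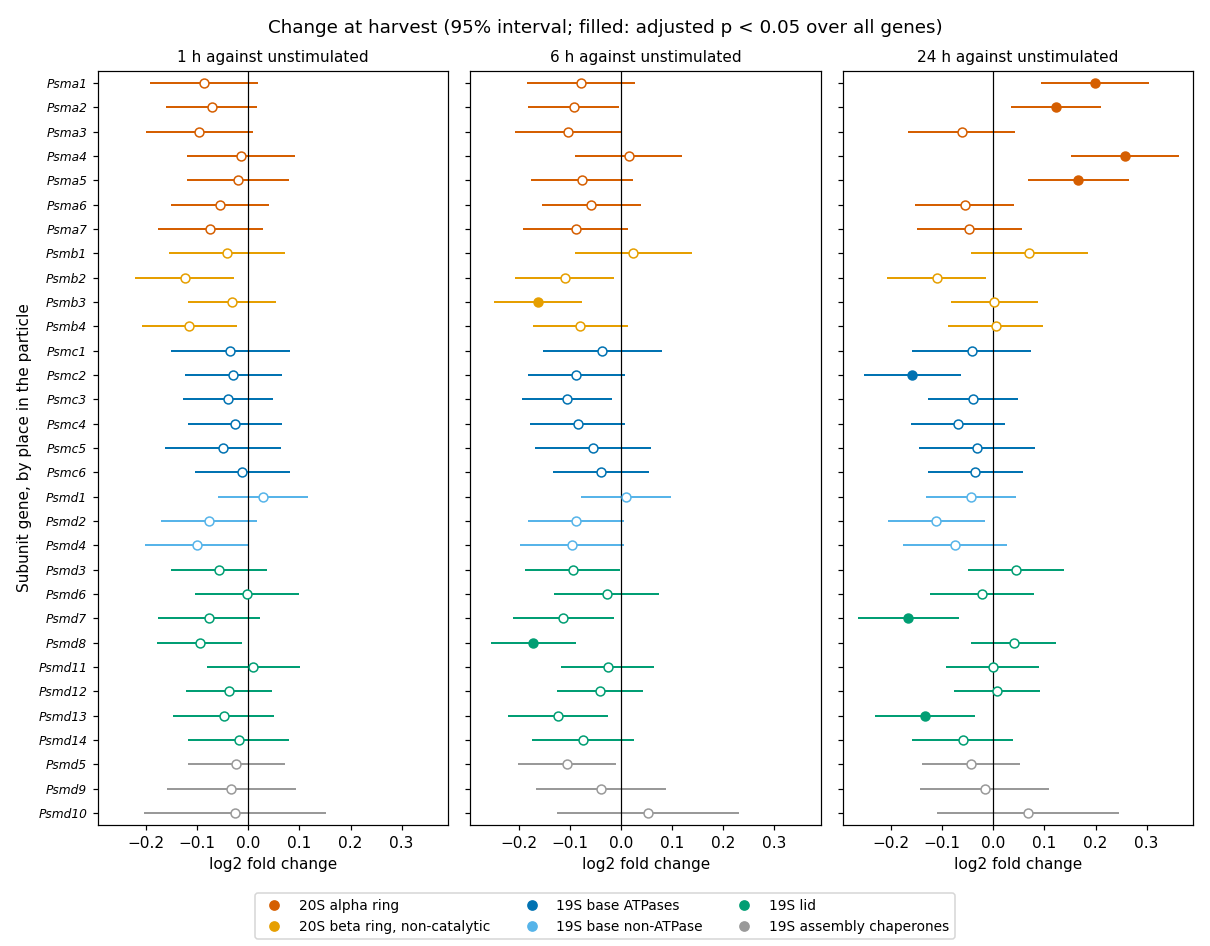
Log2 fold change of the 31 subunit transcripts against unstimulated cells after 1 h, 6 h and 24 h, ordered by place in the particle. Points are edgeR estimates, lines 95% intervals, and filled points have an adjusted p under 0.05. After 24 h the 4 filled points above 0 are Psma1, Psma2, Psma4 and Psma5, and after 6 h the 2 filled points, Psmb3 and Psmd8, lie below 0.

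After a 6 h exposure ended by antibody, 2 members were lower at harvest than in unstimulated cells and 0 were higher. Psmb3, a non-catalytic beta subunit, fell by 10.6%. Psmd8, a lid subunit, fell by 11.2%. Of all genes tested 0.427% were called lower and 1.17% higher. Psmb3 (ENSMUSG00000069744.7, chr11:97703399-97713500, plus strand) had 157, 159 and 159.5 CPM in unstimulated cells, 158, 158 and 149 CPM after 1 h, 139.7, 141 and 144 CPM after 6 h and 154, 159 and 164 CPM after 24 h. All 3 of its 6 h libraries stood below the other 9, and its 24 h and unstimulated libraries overlapped. The log2 fold change of 6 h against unstimulated cells was -0.16 ± 0.04 (SE; edgeR adjusted p = 0.0381).

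Psmd8 (ENSMUSG00000030591.17, chr7:29174188-29180701, minus strand) had 374, 359.8 and 374 CPM in unstimulated cells, 347, 334 and 356 CPM after 1 h, 325, 321 and 338 CPM after 6 h and 373, 386 and 379.7 CPM after 24 h. The 6 h and 1 h libraries were all below the unstimulated ones, and the 6 h and 1 h groups overlapped each other. Its log2 fold change after 6 h was -0.17 ± 0.04 (SE; edgeR adjusted p = 0.0216). Both calls depended on which libraries were included. For Psmb3 it was lost in 7 of 12 cases, on leaving out any 1 unstimulated replicate, 1 h replicate 2, 6 h replicate 1 or 2, or 24 h replicate 2 (adjusted p = 0.0502 to 0.144). For Psmd8 it was lost in 4, on leaving out unstimulated replicate 1 or 3 or 6 h replicate 1 or 2 (adjusted p = 0.0921 to 0.123).

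At an unadjusted p under 0.05 there were 10 members by edgeR and 9 by each of DESeq2 and limma-voom, beside 2008 of 14299 genes by edgeR. Without 6 h replicate 3, the library that stood apart, 4 members were called lower after 6 h: Psma1 and Psma3 beside Psmb3 and Psmd8. In the same fit 3.64% of all genes were called in either direction, the highest share with any 1 library left out; the lowest was 0.608% without unstimulated replicate 1. In 6 h replicate 3 Psma1 and Psma4 reached 139 and 202 CPM, above the other 6 h libraries. Those had 119 and 118 CPM for Psma1 and 175 and 178 CPM for Psma4. The 4 alpha ring genes that were higher after 24 h were not called after 6 h, with log2 fold changes against unstimulated cells of -0.08 for Psma1, -0.09 for Psma2, 0.02 for Psma4 and -0.08 for Psma5. Over the members the median log2 fold change was -0.08, and 27 of 31 lay below 0 (87.1%), beside 50% of all genes. The members' median was -0.06 with each library's trend on exon length removed and -0.11 without 6 h replicate 3 or without unstimulated replicate 2, the lowest of its group in summed level.

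After a 1 h exposure 0 members were called higher and 0 lower, beside 0.273% and 0.147% of all genes. At an unadjusted p under 0.05 there were 4 by edgeR (Psmb2, Psmb4, Psmd4 and Psmd8), 3 by DESeq2 and 3 by limma-voom, beside 1324 of 14299 genes by edgeR. The widest difference was that of Psmb2, -0.12 ± 0.05 (SE; edgeR adjusted p = 0.359) on the log2 scale with a 95% interval of -0.22 to -0.03. Of the 31 members 29 were below 0 (93.5%), at a median of -0.04, beside 50% and a median of 0 over all genes. The members' median was -0.08 without unstimulated replicate 2 and -0.06 without 1 h replicate 2. It was -0.03 without 1 h replicate 3 and -0.04 without unstimulated replicate 1 or 3. The comparisons after 1 h, 6 h and 24 h share the 3 unstimulated libraries, so these counts are not independent of each other. The 31 members also share their libraries, so their signs are not independent either.

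Compared with the blocked exposures, the 24 h cells showed the same 4 alpha ring genes higher. The comparisons with 6 h and 1 h use the same 24 h libraries as that with unstimulated cells, so the recurrence is not independent support. Exposure length, stated antibody and time since the block differ together in these comparisons and cannot be told apart. Against 6 h, 7 members were higher, Psma1, Psma2, Psma4, Psma5, Psmb3, Psmd3 and Psmd8, and 0 were lower, beside 8.92% and 7.63% of all genes; at an unadjusted p under 0.05 edgeR also gave 7 members, beside 4043 of 14299 genes. Against 1 h, 5 were higher, Psma1, Psma2, Psma4, Psma5 and Psmd8, and 1 lower, Psmc2, beside 10.2% and 8.78%. Psma1 was higher by 0.28 ± 0.05 (SE; edgeR adjusted p = 0.000196) on the log2 scale against 6 h and by 0.29 ± 0.05 (SE; edgeR adjusted p = 0.000111) against 1 h. Psma4 was higher by 0.24 ± 0.05 and 0.27 ± 0.05, Psma5 by 0.24 ± 0.05 and 0.19 ± 0.05, and Psma2 by 0.21 ± 0.04 and 0.19 ± 0.04. For these 4 genes all calls against 6 h and against 1 h held under the 23 alternatives, among them each library left out in turn.

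Psmd8 was higher after 24 h by 0.21 ± 0.04 (SE; edgeR adjusted p = 0.000287) against 6 h and by 0.13 ± 0.04 (SE; edgeR adjusted p = 0.0164) against 1 h, the second call being lost without 1 h replicate 2 or 24 h replicate 2 (adjusted p = 0.0923 and 0.0721). Psmb3 was higher than after 6 h by 0.16 ± 0.04 (SE; edgeR adjusted p = 0.00513). Against unstimulated cells the 24 h values were 0.00 ± 0.04 for Psmb3 and 0.04 ± 0.04 for Psmd8, neither called.

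Psmd3, a scaffold subunit of the lid, had 332, 308 and 335 CPM in unstimulated cells, 303, 322 and 312 CPM after 1 h, 309, 296 and 308 CPM after 6 h and 321, 327 and 356 CPM after 24 h. Its 24 h libraries were all above the 6 h ones but overlapped the unstimulated group. It was higher by 0.14 ± 0.04 (SE; edgeR adjusted p = 0.0323) against 6 h, a call lost without 24 h replicate 3 (adjusted p = 0.217) or 6 h replicate 1 or 2 (adjusted p = 0.0513 and 0.115). Psmc2 was lower than after 1 h, at -0.13 ± 0.05 (SE; edgeR adjusted p = 0.0448) on the log2 scale, a call lost in 8 of the 12 cases where a library was left out (adjusted p up to 0.2, without 1 h replicate 2). Between 6 h and 1 h, 0 members were called in either direction, beside 0.0839% of genes higher and 0.014% lower; at an unadjusted p under 0.05 there was 1 by each of edgeR, DESeq2 and limma-voom, beside 706 of 14299 genes by edgeR.

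Around the standard subunits, the interferon-induced catalytic subunits changed far more. These lists were assembled with results of these data known. Psmb9, Psmb8 and Psmb10, which take the places of Psmb6, Psmb5 and Psmb7 in the core, rose in all 3 cases after 24 h; Psmb11 and Psma8, known from thymus and testis, had 3 and 0 counts over all libraries and were not tested. Psmb9 had 79.3, 80.4 and 90.3 CPM in 24 h cells against 13.3, 11.5 and 12 CPM in unstimulated cells, 2.76 ± 0.07 (SE; edgeR adjusted p = 3.95e-22) on the log2 scale, and was also higher after 6 h, by 0.47 ± 0.08 (SE; edgeR adjusted p = 0.000439). Psmb10 had 62, 57.4 and 70.6 CPM against 24, 20.1 and 22.7 CPM and Psmb8 130.5, 126 and 129.9 CPM against 50.9, 42.7 and 52.4 CPM, 2.84-fold and 2.64-fold higher. Of the constitutive catalytic subunits Psmb6 was lower after 24 h, with 66.7, 63 and 70 CPM against 81.2, 68.1 and 75.2 CPM in unstimulated cells, or -0.17 ± 0.06 (SE; edgeR adjusted p = 0.0307) on the log2 scale. The call for Psmb6 was lost without unstimulated replicate 1 or 3 or 24 h replicate 1 or 2 (adjusted p = 0.291, 0.0876, 0.086 and 0.17). Its partners Psmb5 (-0.07 ± 0.10) and Psmb7 (0.03 ± 0.04) were not called.

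Of 7 activators and regulators, 3 were higher and 3 lower after 24 h. Psme2b and Psme2 rose by 1.32 ± 0.10 and 1.23 ± 0.08 on the log2 scale (± SE, here and below); Psme1 and Psme2 encode the PA28 cap that IFN-γ is known to induce, and Psme1 rose by 0.88 ± 0.06. Psme2b is a near copy of Psme2, so reads of the pair may be split. Lower were Psme3 of the nuclear PA28γ cap (-0.14 ± 0.04), the activator Psme4 (-0.14 ± 0.04) and Psme3ip1, whose product binds Psme3 (-0.21 ± 0.05). Leaving out 1 library ended the call for Psme3 (adjusted p up to 0.0921, without 24 h replicate 1; also without unstimulated replicate 2 or 3 or 24 h replicate 3). It ended that for Psme4 without unstimulated replicate 3 or 24 h replicate 3 (adjusted p = 0.0578 and 0.0824). Among 5 chaperones that build the 20S core, 1 rose, Psmg4, by 0.83 ± 0.12 (SE; edgeR adjusted p = 3.28e-06), at 7.96, 7.66 and 8.1 CPM in 24 h cells against 4.44, 4.33 and 4.55 CPM in unstimulated cells. Pomp, which completes the core, had a log2 fold change of 0.18 ± 0.07 (adjusted p = 0.0883), not called.

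Among 8 genes that control proteasome transcription, Nfe2l1, the factor known to raise subunit genes when the proteasome is impaired, was lower (-0.16 ± 0.05), Nfe2l2 was higher (0.34 ± 0.04), and Maff, a small partner of both, was higher at a low level (1.47 ± 0.37). The other 5 of these genes were not called. The call for Nfe2l1 was lost without unstimulated replicate 1 or 3 or 24 h replicate 1 or 2 (adjusted p = 0.252, 0.0969, 0.0799 and 0.112). In the 6 h and 1 h comparisons with unstimulated cells the sole call in these lists was Psmb9 after 6 h. The widest difference among the 31 members, 0.26 for Psma4, compares with 2.76 for Psmb9 on the log2 scale.

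**Figure D4:**
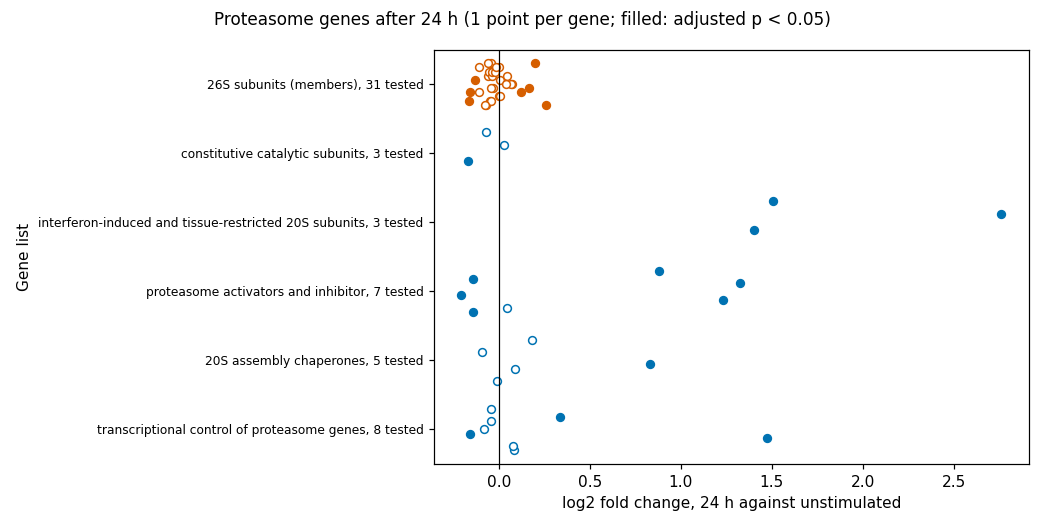
Log2 fold change of 24 h against unstimulated cells for the 31 standard subunits (orange) and 5 other lists of proteasome genes (blue), 1 point for each gene tested. Filled points have an edgeR adjusted p under 0.05. The standard subunits lie between -0.17 and 0.26, and all 3 interferon-induced catalytic subunits lie above 1.

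Near-identical copies could take reads from some members. Matches to other genes with at least 95% identity over 500 bp were found for 9 of them. For Psmd9 the match was Gm26745, which overlaps 1849 bp of its exons on the opposite strand and had 0 counts. Reads that fit both a member and a copy or overlapping gene may be in neither count. The copies' counts therefore do not bound the uncertainty of these members. The largest share of a parent's counts was 5.04%, held by A730017L22Rik, a copy of the lid subunit Psmd11. The copies of Psma5 held 1.3% and 1.38% of its counts, that of Psma4 0.862% and that of Psma2 0.011%. Adding the copies' counts to the parent gene, which was decided on with the data in view, left the 7 members called after 24 h as they were. It cannot restore reads that entered neither count. Psma4 and Psma5 share 114 and 60 bp of exon with antisense genes that held 9 and 112 counts over all 12 libraries.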

How the data were processed

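The table's header doubles some tabs, so columns were matched by the order of its names. Gene counts were used as deposited by the authors, without scaling; the paired-end libraries were stranded, per the labels' protocols. The submitters' processing notes name the mm10 build, featureCounts 1.4.3-p1, STAR 2.5.2a and Picard; neither annotation release nor strand setting is given in the sources used here. Of counts from 1 to 20, 69.9% to 73.9% per library were even, as when each mate of a pair adds 1, so counts overstate the number of independent fragments.

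Genes were filtered by filterByExpr, scaled by TMM and fitted in 4 groups of 3 with edgeR 4.0.16 (R 4.3.3; robust quasi-likelihood, 8 residual degrees of freedom), with Benjamini-Hochberg adjustment over 14299 genes. The SE of a log2 fold change was its size over the root of the F statistic. The common biological coefficient of variation was 0.0579. Scripts were tested on simulated data. Members and lists were chosen with earlier results of these data known. Full values went to members called against unstimulated cells, the 2 highest and 2 lowest per kb of exon, and the nearest member outside the threshold; Psmd3 was described after its value was seen. In each pathway list all called genes are named if 5 or fewer, else the top pair by size of change; the other 4 activators, with Psmb5, Psmb7 and Pomp, were named after their values were seen. Alternatives were DESeq2 1.42.0, limma-voom (limma 3.58.1), RLE factors, 2 other filters, 6 libraries compared, a replicate block, halved counts, length and GC trends removed, and each library left out. BLAST 2.17.0+ found copies. Some items of the pathway lists are not reported here. No 2 libraries of a group agreed within sampling noise (chi-square over degrees of freedom 2.41 to 7.87).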

Additional observations from a re-analysis of the deposited data

Results flagged for a closer look

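Some members changed against unstimulated cells to a different extent after 24 h than after a blocked exposure. The test of that difference is the direct comparison of the exposures, since the unstimulated libraries are shared and cancel (edgeR adjusted p under 0.05 over all genes). Between 24 h and 6 h the difference of the log2 changes was 0.277 for Psma1, 0.242 for Psma4, 0.243 for Psma5, 0.215 for Psma2, 0.211 for Psmd8, 0.163 for Psmb3 and 0.138 for Psmd3. For Psma1, Psma2, Psma4 and Psma5 the 24 h value was above unstimulated cells, and for Psmb3 and Psmd8 the 6 h value was below them. Psmd3 was called against neither.

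Between 24 h and 1 h the difference was 0.286 for Psma1, 0.271 for Psma4, 0.195 for Psma2, 0.186 for Psma5, 0.135 for Psmd8 and -0.13 for Psmc2. The 24 h libraries of Psma1, Psma2, Psma4 and Psma5 lay above all 9 others in each case. These genes were singled out by their calls, and the share of all genes so separated was not counted. The comparisons of 24 h with 6 h and with 1 h share the 24 h libraries. How much of these differences moves with the shifts of B cell markers between the groups was not tested. Exposure length, stated antibody and time since the block also differed together between the exposures and cannot be told apart.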

How the results depend on the processing

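Of the counts of members called, those that moved by over 1.5 times under a setting other than leaving out a library were these. After 6 h the 2 members lower became 0 with the 6 libraries compared fitted alone and 1 with the exon length trend removed. Between 24 h and 1 h the 1 member lower became 0 with RLE factors, with a filter of at least 1 count in any library, and with limma-voom. The cause was not tested. Leaving out 1 library at a time, the members called after 24 h against unstimulated cells ran from 2 to 4 higher and from 0 to 5 lower, after 6 h 0 higher and from 0 to 4 lower, and after 1 h 0 either way. For 24 h against 6 h they ran from 6 to 7 higher and stayed at 0 lower, and for 24 h against 1 h from 4 to 7 higher and from 0 to 1 lower. In these alternatives no called member changed sign, and Psma1 and Psma4 kept every call. Of the calls named in the other proteasome lists, against unstimulated cells and with these alternatives chosen after seeing the data, the higher ones all held where tested; Psmb6 was lost with 6 libraries compared (adjusted p = 0.051) and Nfe2l1 with the GC trend removed (adjusted p = 0.0542). No pairing of the samples by replicate number was seen. Same-numbered samples of different groups correlated at -0.07 to 0.06 in their deviations from group means (18 pairs), others at -0.05 to 0.07. These values cannot exclude a shared culture or batch. With the replicate number as a block the counts after 24 h were 4 higher and 3 lower, after 6 h 0 and 2, and the block changed no call of a member. Of all genes, 12.4% (without unstimulated replicate 1) to 20.7% (without 6 h replicate 3) were called after 24 h. The member with the fewest counts, Psmd10, had as few as 618 in a library, so counting error is widest there.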
